A study of Arabidopsis thaliana with 64 samples.

Results

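The genes AT3G01345, AT3G61198 and AT5G07650 of *Arabidopsis thaliana* are the genes whose RNA departed from the parental mean in both reciprocal F1 hybrids of C24 and Landsberg erecta (Ler) in leaves sampled 28 days after sowing (DAS). They were taken from 33321 gene rows because both F1s differed from the mid-parent at 28 DAS at an adjusted p below 0.05, so the genes were selected on their counts in that contrast, whose values are given as a description. AT3G01345 lay above the mid-parent in both F1s, and AT3G61198 and AT5G07650 lay below it. The contrast called 4 of 27720 genes in C24xLer (0.0144%) and 8 in LerxC24 (0.0289%), and these 3 genes were in both sets. Just inside the limit were AT3G61198 and AT5G07650, with adjusted p of 0.0401 and 0.0369 in C24xLer. Just outside was FH19 (AT5G07780), a formin gene close to AT5G07650, with 0.0148 in LerxC24 and 0.194 in C24xLer. With any 1 library of a contrast left out, at most 1 gene was called in it.

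A hybrid between inbred parents carries 1 allele of every gene from each parent. A gene whose alleles work independently is expected near the parental mean, and a gene outside that mean is called non-additive. AT3G01345 encodes a protein that RefSeq lists as uncharacterized. AT3G61198 is a non-coding RNA gene whose exon 1 resembles the U3 small nucleolar RNAs, which take part in the processing of ribosomal RNA precursors. AT5G07650 encodes a protein with a formin homology 2 (FH2) domain, and formins nucleate and elongate actin filaments, which plant cells use for vesicle transport, tip growth and division.

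Total RNA was sequenced from pools of 5 plants, with 2 biological replicate pools in each of 32 groups (64 libraries), 18 groups at 15 DAS (aerial tissue of seedlings) and 14 groups at 28 DAS (the 4 largest leaves). The groups were the inbred accessions C24 and Ler, the F1 hybrids C24xLer and LerxC24, and F4 lines derived from the hybrids. The 8 F4 lines whose names begin with L were described as hybrid mimics, while S1-1, S2-1 and pools of the 5 smallest of 50 parental seedlings were sampled at 15 DAS only. Each batch had its own C24 and Ler plants. In batch 1 these stood beside C24xLer and the lines L1-1, L1-2, L2-1 and L2-2. In batch 2, grown under other light tubes, they stood beside LerxC24 and the lines L3-1, L3-2, L4-1 and L4-2. The labels name no transgene and no treatment, all plants were grown with 16 h of light and 8 h of dark, and plants moved from plates to soil at day 18. The direction of the cross therefore goes with the batch, and the effects of these cannot be told apart. A p-value measures the spread between pools, not between single plants, and in such bulk RNA fewer cells of a type and less RNA per cell cannot be told apart.

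The total count of a library ranged from 36324848 to 256721442, with 28740 to 31401 genes detected. Levels are given in CPM, read counts relative to a library's scaled size, and are not divided by gene length, so they compare samples and not genes. The 4 leaf markers summed to 11100 to 19500 CPM at 15 DAS and 26900 to 67200 at 28 DAS, and the 6 root markers to 39 to 276 and 3.91 to 6.2 CPM, with 5 of the 6 root markers below 1 CPM in every library at 28 DAS. The 7 flower organ markers summed to 7.77 to 42.1 and 4.29 to 15.9 CPM, and the 2 pollen markers to 1.44 to 3.07 and 0.479 to 2.1. The 5 shoot meristem markers summed to 61 to 126 and 48.4 to 125. Most of that sum was the marker CLV1, at 51.4 to 100 CPM at 15 DAS and 48.2 to 124 at 28 DAS. At 28 DAS 4 of the 5 meristem markers were below 1 CPM in every library, against 2 at 15 DAS. STM and KNAT1 were at least 3.4 and 4.88 CPM at 15 DAS and at most 0.248 and 0.241 at 28 DAS. Both Ler pools of batch 1 at 15 DAS stood apart, since 16 transcripts that other Ler libraries lacked were at 17.3 and 16.9% of their C24 level there, against 0.501 to 0.762% in other Ler libraries of that age. C24 batch 1 pool B and the smallest C24 pool B agreed more closely than any other pair of libraries, with a variance of 2.28 times counting error against 6.75 for the next pair. That pair was pool B of L1-1 and pool B of L1-2 at 15 DAS, and their pools A followed at 7.01, so libraries of these lines were closer to each other than any 2 pools of 1 group were (7.74 at the lowest, in C24 of batch 2). The same 16 transcripts, as a share of their level in C24 of batch 1 at 15 DAS, stood at 16.2 and 43% in L1-1 at 15 DAS and at 70.2 and 60.2% at 28 DAS. They stood at 26.2 and 18.8% and at 14.2 and 18.5% in L1-2, and at 104 to 118% in C24 at 28 DAS. For 1 library, line L4-2 pool B at 28 DAS, the source label names 15-day seedlings and the title 28 DAS, and it is used by its title. It is among the libraries titled 28 DAS whose root markers summed to at most 6.2 CPM, against at least 39 at 15 DAS.

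AT3G01345 lies at chr3:129138-130749 on the plus strand of TAIR10.1 and has 1 exon of 1612 bases, with its coding part from 129319 to 130719. None of its 1563 windows of 50 bases occurs elsewhere in the reference genome. Its closest other stretch of at least 100 bases is 77.5% identical over 120 aligned bases. Longer and less similar matches lie on chromosome 2 (1604 aligned bases, 74.7%) and chromosome 5 (1562 aligned bases, 70.5%), so related sequences of nearly its length exist. No genome sequence of C24 or Ler was used. Its start lies 143 bases from that of the neighbouring gene AT3G01340, which is read in the opposite direction. These bases (RefSeq, TAIR10.1, plus strand, chr3:128995-129137) are shown because the genes start at either edge of them, and AT3G01345 set the F1s apart at 28 DAS while AT3G01340 was close to the mid-parent.
Between AT3G01340 and AT3G01345: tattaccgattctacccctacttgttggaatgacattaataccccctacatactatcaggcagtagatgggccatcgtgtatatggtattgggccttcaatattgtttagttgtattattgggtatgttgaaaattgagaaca

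AT3G61198 lies at chr3:22655884-22656599 on the minus strand and has 2 exons with 622 bases in all. Exon 1 is at least 90% identical to 6 other loci over at least 150 bases, while exon 2 had no match of at least 80% over 100 bases. Of its 573 windows of 50 bases, 9 (1.57%) occur elsewhere. The sequences of exon 1 (chr3:22656402-22656599, minus strand) and of 2 of its matches, U3D (chr5:21945393-21945590, minus strand) and U3B (chr5:21888309-21888507, plus strand), show how close the copies are. Capitals mark the bases that differ from exon 1 (RefSeq, TAIR10.1).
AT3G61198 exon 1: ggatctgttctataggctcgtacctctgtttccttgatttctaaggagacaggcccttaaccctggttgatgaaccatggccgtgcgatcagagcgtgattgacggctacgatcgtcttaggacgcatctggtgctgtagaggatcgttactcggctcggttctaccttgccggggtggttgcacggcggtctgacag
U3D: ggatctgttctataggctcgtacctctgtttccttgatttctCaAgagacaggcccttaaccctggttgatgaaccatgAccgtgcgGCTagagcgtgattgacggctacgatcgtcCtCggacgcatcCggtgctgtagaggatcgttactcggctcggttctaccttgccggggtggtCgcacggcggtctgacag
U3B: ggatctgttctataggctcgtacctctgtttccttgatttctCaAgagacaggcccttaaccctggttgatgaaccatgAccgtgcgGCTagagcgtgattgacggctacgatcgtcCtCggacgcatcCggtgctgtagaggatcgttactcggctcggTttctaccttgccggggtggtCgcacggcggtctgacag
U3D has 10 mismatches and no gap (94.9% identity), and U3B has 10 mismatches and 1 extra base (94.5%). Reads from exon 1 could therefore be split between loci. How the authors counted such reads is not given in the sources used here, so the level of AT3G61198 is uncertain in that respect. The sequences are those of the reference, and copies in C24 and Ler were not examined.

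AT5G07650 lies at chr5:2416200-2422073 on the minus strand and has 28 exons with 2707 bases in its longest transcript. It is 1 of several formin genes close together on chromosome 5. Of its exons, 15 hold a stretch of at least 60 bases that is at least 90% identical elsewhere, and 27 of its 2658 windows of 50 bases (1.02%) occur elsewhere. Exon 18 (chr5:2418294-2418392, minus strand) is shown with the matching stretch of the formin gene AT5G07760 (chr5:2471465-2471563, plus strand). AT5G07760 was among the genes most like AT5G07650 across the 32 groups (r = 0.904), less so at 15 DAS alone (r = 0.448). Capitals mark the 3 bases that differ (97% identity).
AT5G07650 exon: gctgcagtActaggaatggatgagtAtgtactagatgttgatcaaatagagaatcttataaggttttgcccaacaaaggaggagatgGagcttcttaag
AT5G07760 stretch: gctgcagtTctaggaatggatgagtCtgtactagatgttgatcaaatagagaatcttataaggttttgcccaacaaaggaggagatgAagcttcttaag
AT5G07650 also overlaps the end of AT5G07640, a RING/U-box protein gene on the other strand, by 100 bases. The strand setting of the counting is not given in the sources used here, so reads from that overlap cannot be told apart.

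At 28 DAS AT3G01345 was high in both F1s and in 5 of the 8 L lines, and low in both parents and in 3 lines. C24 had 0.766 and 0.873 CPM in batch 1 and 0.927 and 1.30 in batch 2. Ler had 0.977 and 0.943 CPM in batch 1 and 1.17 and 1.56 in batch 2. The parents were thus alike, with Ler minus C24 at 0.23 ± 0.31 (SE) on the log2 scale in batch 1 and 0.31 ± 0.32 in batch 2, n = 2 pools per group. C24xLer had 5.68 and 6.05 CPM, and LerxC24 had 5.86 and 6.45. All 4 F1 libraries lay above all 8 parental libraries, at 6.11 times the higher parent of the batch for C24xLer and 4.51 times for LerxC24.

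The mid-parent for each F1 was built by averaging a C24 and a Ler library of the same batch after scaling. It stood at 0.890 ± 0.0256 CPM (SD, n = 2) in batch 1 and 1.24 ± 0.268 in batch 2. The log2 difference of AT3G01345 from it was 2.75 ± 0.32 (SE) in C24xLer and 2.34 ± 0.32 in LerxC24. Averaging the parents on the log scale left these at 2.73 and 2.33. Both parents were at similar levels, and the choice of mean moved the difference little.

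**Figure D1:**
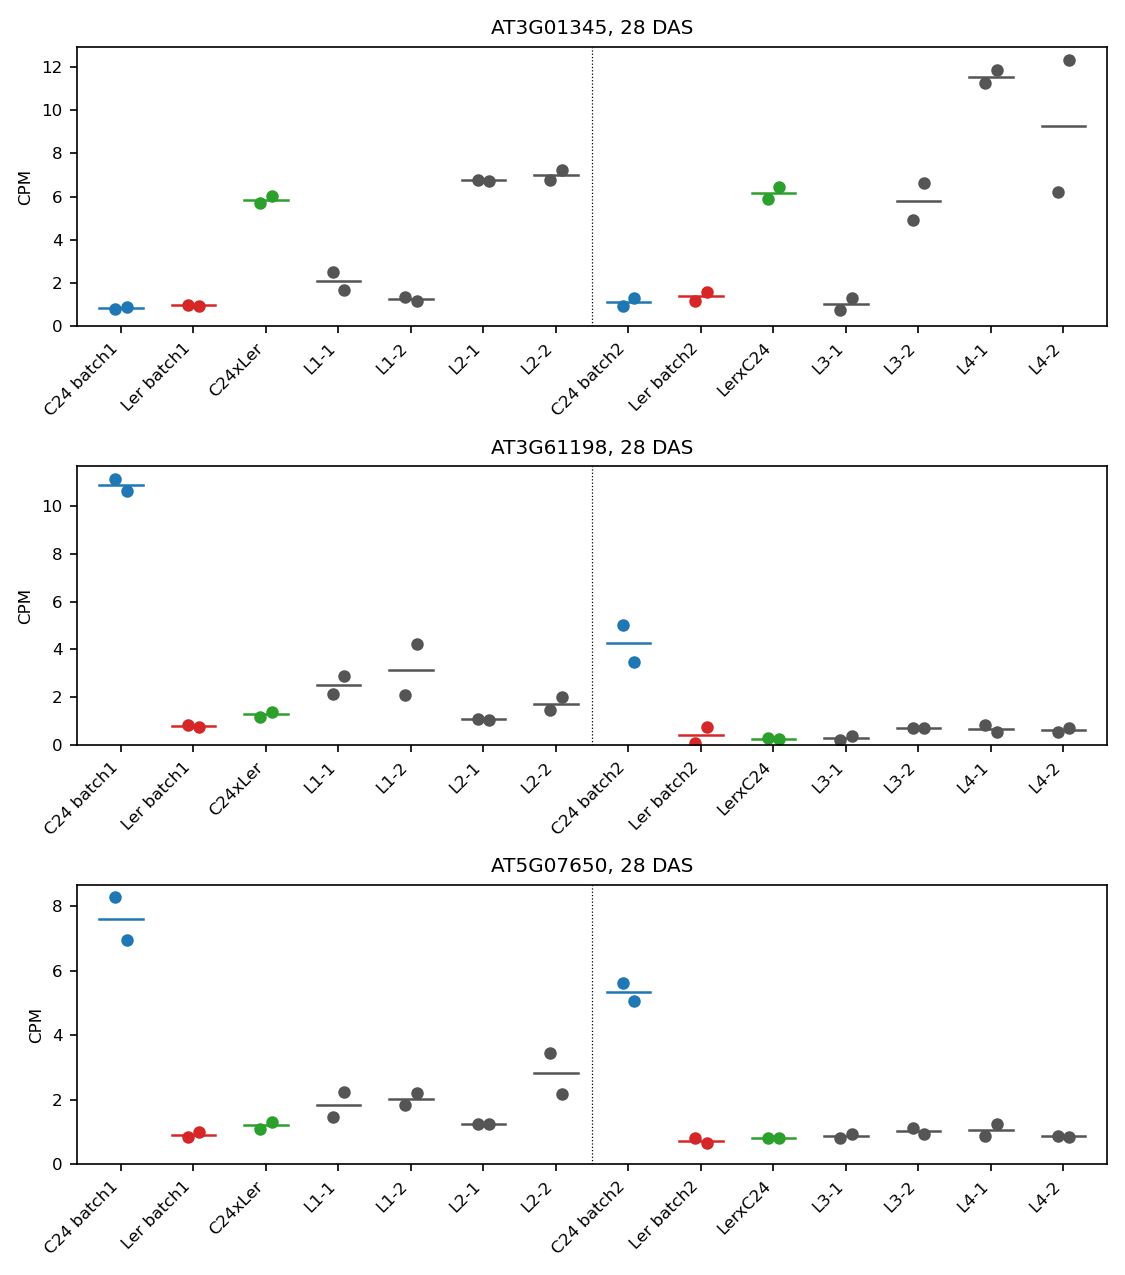
CPM of the 3 genes in each library (points) and group means (horizontal lines) at 28 DAS, with batch 1 left and batch 2 right of the dotted line and n = 2 pools per group. AT3G01345 is at 5.68 to 6.45 CPM in the F1s and at most 1.56 in the parents, while AT3G61198 and AT5G07650 are highest in C24 of each batch.

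The L lines split into high and low levels of AT3G01345 at 28 DAS. L1-1 had 2.49 and 1.65 CPM and L1-2 had 1.36 and 1.13. L2-1 had 6.79 and 6.70 and L2-2 had 6.79 and 7.23. In batch 1, both L2 lines were therefore above the F1 libraries, at 7.03 and 7.3 times the higher parent, and both L1 lines were below them. L3-1 had 0.724 and 1.27 CPM and L3-2 had 4.92 and 6.63. L4-1 had 11.3 and 11.9 and L4-2 had 6.20 and 12.4. In batch 2, L3-1 was at 0.732 times the higher parent, with pool A below every parental library and pool B within their range, while L3-2, L4-1 and L4-2 were at 4.23, 8.47 and 6.79 times the higher parent.

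The contrasts among lines held no parental or F1 library and were tested. Their spread was estimated over all 28 DAS libraries, with those that chose the gene among them. The p-values are therefore not fully independent of that choice. By edgeR's quasi-likelihood test, adjusted by Benjamini-Hochberg (BH) over all genes, AT3G01345 differed among the 4 lines of batch 1 at 28 DAS (adjusted p = 5.59e-05, where 2.69% of genes were called) and among those of batch 2 (adjusted p = 2.42e-05, 1.99%). With each library of the lines left out in turn, adjusted p ran from 0.000104 to 0.000792 in batch 1 and from 4.51e-06 to 0.000728 in batch 2. In the order of mean levels at 28 DAS, L4-1 came highest, followed by L4-2, L2-2, L2-1, LerxC24, C24xLer, L3-2, L1-1, Ler of batch 2, L1-2, C24 of batch 2, L3-1, Ler of batch 1 and C24 of batch 1. Of the 13 neighbouring pairs in this order, 9 had overlapping libraries. The pairs whose libraries did not overlap were L2-1 and LerxC24, L3-2 and L1-1, L1-1 and Ler of batch 2, and Ler and C24 of batch 1.

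At 15 DAS the same gene was less spread out. C24 had 2.47 and 2.26 CPM in batch 1 and 3.54 and 2.52 in batch 2, and Ler had 2.92 and 3.03 in batch 1 and 3.19 and 3.55 in batch 2. C24xLer had 4.61 and 3.44 CPM, and LerxC24 had 4.41 and 4.52. The F1 libraries overlapped the parental range of 2.26 to 3.55 CPM at its upper end, and 3 of the 4 were above it. The log2 difference from the mid-parent was 0.59 ± 0.26 (SE) in C24xLer (edgeR quasi-likelihood unadjusted p = 0.0324, adjusted p = 1) and 0.49 ± 0.26 in LerxC24 (unadjusted p = 0.0739, adjusted p = 1). Neither passed the threshold, in contrasts that called 0.209 and 0.0166% of genes, and neither did AT3G61198 or AT5G07650. DESeq2 also gave AT3G01345 an adjusted p of 1 in both. With the smallest-seedling Ler pools replacing the batch 1 Ler pools that stood apart, the C24xLer difference was 0.64 (adjusted p = 0.837). The size of the F1 difference at 15 DAS was not tested against that at 28 DAS, because the latter chose the gene.

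Against each parent singly at 15 DAS, AT3G01345 in the F1s was also not called. C24xLer differed from C24 by 0.76 ± 0.26 on the log2 scale (edgeR adjusted p = 0.173, 1.88% of genes called) and from Ler by 0.43 ± 0.25 (adjusted p = 0.803, 1%). LerxC24 differed from C24 by 0.57 ± 0.26 (adjusted p = 0.289, 2.97%) and from Ler by 0.41 ± 0.26 (adjusted p = 0.46, 4.25%). All of these differences were positive. The 2 crosses differed in their distance from the mid-parent by -0.10 ± 0.37 (LerxC24 minus C24xLer, adjusted p = 1, 0.0498% of genes called), so no difference between the crosses was detectable with 2 pools each. The parents did not pass either, with Ler minus C24 at 0.33 ± 0.26 in batch 1 (adjusted p = 0.602, 6.58% of genes called) and 0.16 ± 0.26 in batch 2 (adjusted p = 0.734, 18.8%).

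**Figure D2:**
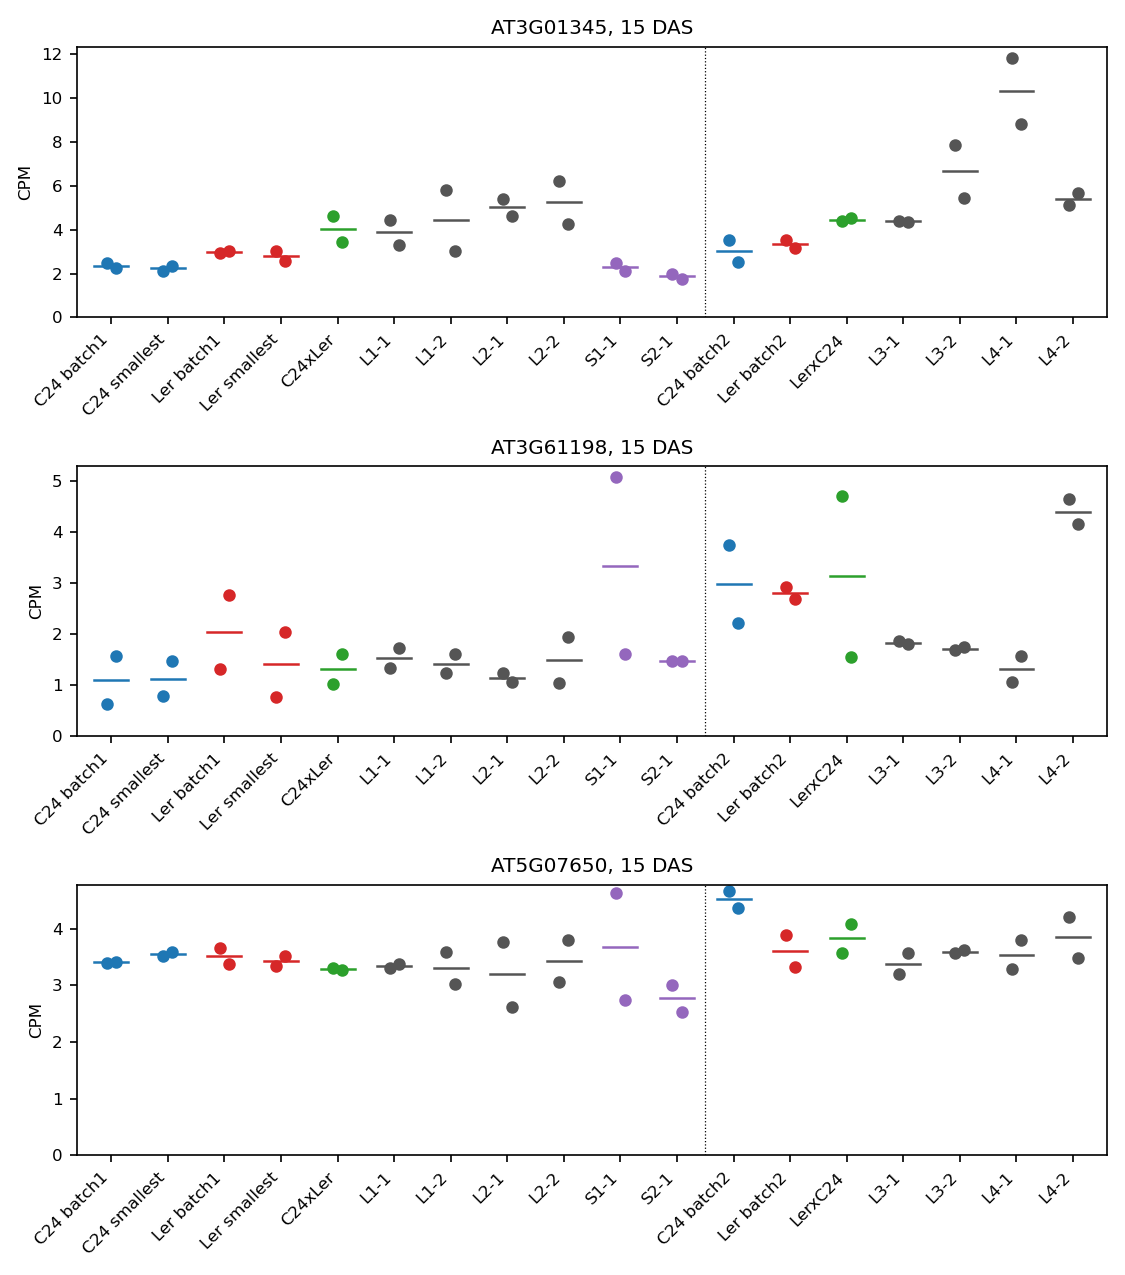
CPM of the 3 genes in each library (points) and group means (horizontal lines) at 15 DAS, with batch 2 right of the dotted line, n = 2 pools per group, and S1-1 and S2-1, whose batch is not certain, drawn left of it. AT3G01345 is highest in L4-1 (11.8 and 8.81 CPM), and AT5G07650 stays between 2.54 and 4.66 CPM in all libraries.

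Every L line had a higher mean of AT3G01345 than its mid-parent at 15 DAS, and the lines L3-2 and L4-1 passed the test. The 15 DAS libraries of L3-2 and L4-1 were numbered in the deposit with those of batch 1, not with the other batch 2 libraries. Whether this numbering goes with their levels was not tested. The same holds for comparisons among the batch 2 lines at 15 DAS. L4-1 had 11.8 and 8.81 CPM, more than any other library at this age, and differed from the mid-parent by 1.69 ± 0.26 on the log2 scale (edgeR adjusted p = 0.000702, where 1.85% of genes were called). L3-2 had 7.88 and 5.46 CPM and a difference of 1.08 ± 0.26 (adjusted p = 0.039, 1.52%). The call in L4-1 held with each library left out (adjusted p at most 0.0329), whereas that in L3-2 was lost without L3-2 pool A or without either mid-parent library (adjusted p up to 0.512). Differences in the other 6 lines ran from 0.47 to 0.98 and did not pass, where 1.65% (L1-1), 1.61% (L1-2), 1.13% (L2-1), 1.14% (L2-2), 2.03% (L3-1) and 5.04% (L4-2) of genes were called. With a log-scale mean of the parents, L2-1, L2-2 and L4-2 passed too, at adjusted p of 0.0209, 0.0136 and 0.0232.

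Line L1-2 showed the widest spread among the L lines of batch 1 at 15 DAS, with 5.81 and 3.04 CPM, and passed when pool B was left out (1.11 on the log2 scale, adjusted p = 0.0367). L1-1 had 4.43 and 3.32 CPM, L2-1 had 5.40 and 4.64 and L2-2 had 6.22 and 4.27. L3-1 had 4.40 and 4.37 CPM and L4-2 had 5.13 and 5.67. Libraries of the batch 1 lines overlapped one another except those of L1-1 and L2-1, and the test among the 4 lines gave an adjusted p of 1 (3.38% of genes called). Among the lines of batch 2 the adjusted p was 0.0129 (7.49%), and without L4-1 pool A it was 0.162.

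The lines named S had less AT3G01345 RNA than the L lines, without overlap. S1-1 had 2.47 and 2.1 CPM and S2-1 had 1.98 and 1.77, against 3.04 to 11.8 in the 16 L line libraries of that age. The difference from the batch 1 mid-parent was -0.23 ± 0.26 in S1-1 (adjusted p = 0.763, 3.17% of genes called) and -0.50 ± 0.26 in S2-1 (adjusted p = 0.421, 2.63%), neither of which passed. The smallest C24 seedlings had 2.12 and 2.35 CPM and the smallest Ler seedlings 3.01 and 2.59, and neither group differed from its parent of batch 1 by more than 0.10 on the log2 scale (edgeR adjusted p = 1, where 0 and 1.3% of genes were called). The C24 contrast holds the pools B that agreed more closely than any other pair of libraries, so it could show little difference. The Ler contrast rests on the batch 1 Ler pools that stood apart. In the order of means at 15 DAS, 13 of 17 neighbouring pairs overlapped. The breaks lay between L4-1 and L3-2, L2-1 and LerxC24, the smallest Ler seedlings and C24 of batch 1, and the smallest C24 seedlings and S2-1.

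Between 15 and 28 DAS AT3G01345 fell in 3 L lines and rose in 1, relative to a median shift over all genes of -0.07 to -0.14 on the log2 scale. It fell in L3-1 by 2.09 ± 0.29 (edgeR adjusted p = 1.91e-07), in L1-2 by 1.82 ± 0.29 (adjusted p = 1.58e-06) and in L1-1 by 0.89 ± 0.28 (adjusted p = 0.00602), and it rose in L4-2 by 0.77 ± 0.27 (adjusted p = 0.0146). A call as such was common, since the share of all genes called in either direction was 58.3, 58.5, 57.4 and 59% in L1-1, L1-2, L2-1 and L2-2 and 61.6, 60, 59.1 and 59.4% in L3-1, L3-2, L4-1 and L4-2. In L4-2, 26.6% of genes were called higher. The calls in L3-1 and L1-2 held with each library left out, while that in L1-1 was lost without pool B at 28 DAS or pool A at 15 DAS (adjusted p up to 0.111). L1-1 and L1-2 are the lines whose 15 DAS libraries stood unusually close, and the transcripts that Ler lacked were lower at 15 than at 28 DAS in both pools of L1-1. Their part in these changes was not tested. The call in L4-2 was lost without pool B at 28 DAS, which is the library with the doubtful source label, or without pool A at 15 DAS (adjusted p up to 0.601). In L2-1, L2-2, L3-2 and L4-1 the change was 0.43, 0.42, -0.20 and 0.17 and did not pass. Age goes with tissue and growth medium here (seedlings on plates, mature leaves on soil), and these cannot be told apart.

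The change with age itself differed among the lines. The test of that difference gave an adjusted p of 0.000687 in batch 1 (0.76% of genes called) and 0.000214 in batch 2 (1.15%), by edgeR's quasi-likelihood test chosen after the data were seen. In batch 1 both L1 lines fell and both L2 lines had positive changes that did not pass. In batch 2 L3-1 fell, and L4-2 rose. The lines that fell are those that were low at 28 DAS, at 0.724 to 2.49 CPM per library, where the parents had 0.766 to 1.56.

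**Figure D3:**
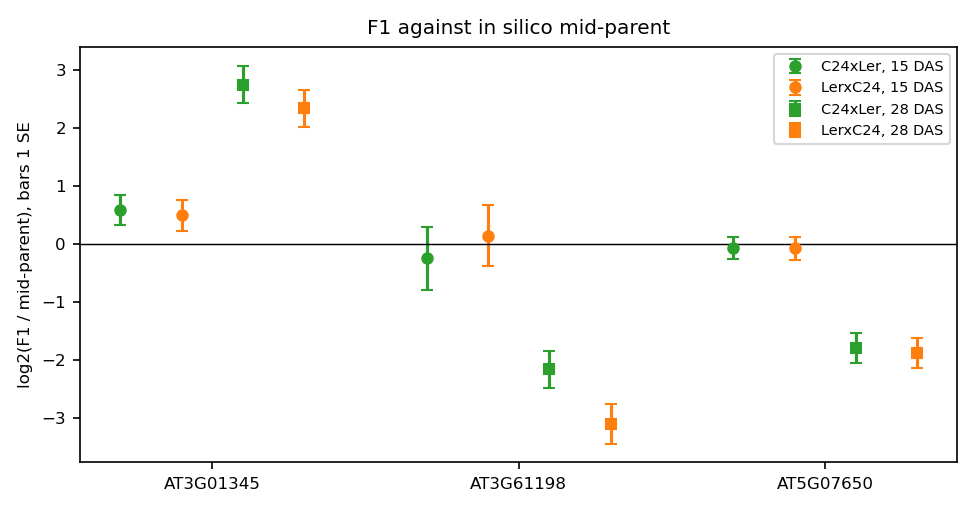
Log2 difference of the F1s from the mid-parent for each gene at 15 and 28 DAS, with bars for 1 SE. AT3G01345 is at 2.75 and 2.34 at 28 DAS and 0.59 and 0.49 at 15 DAS, while AT3G61198 and AT5G07650 are near 0 at 15 DAS and at -1.79 to -3.10 at 28 DAS.

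The gene whose levels were most like those of AT3G01345, by the correlation of group means of log2(CPM + 0.1) across the 32 groups over 22650 genes, was MAF1 (AT1G77080), with r = 0.734. MAF1, also called FLM, encodes a MADS-box protein that represses flowering. The correlation was 0.862 over the 14 groups at 28 DAS and 0.47 over the 18 at 15 DAS. At 28 DAS MAF1 averaged 23.3 ± 0.362 CPM (SD, n = 2) in C24xLer and 22.6 ± 1.67 in LerxC24, against 0.410 ± 0.134 and 0.589 ± 0.231 in C24 and 3.47 ± 0.159 and 7.04 ± 4.23 in Ler. The lines high in AT3G01345 had MAF1 at 16.1 ± 5.42 (L3-2), 21.8 ± 0.368 (L4-2), 22.6 ± 1.04 (L2-2), 23.4 ± 4.04 (L2-1) and 44.4 ± 3.63 CPM (L4-1). The lines low in AT3G01345 had 0.294 ± 0.199 (L1-1), 0.317 ± 0.0374 (L1-2) and 2.49 ± 2.87 (L3-1).

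The likeness had limits. The MAF1 mean was higher in Ler than in C24 at both ages and in both batches, whereas the parents were close to each other for AT3G01345, with the Ler mean the higher one throughout. Line S2-1 had the highest MAF1 mean at 15 DAS, 28.5 ± 2.30 CPM, and the lowest AT3G01345 mean, 1.87 ± 0.147. L1-1 had the lowest MAF1 mean at 28 DAS, and an AT3G01345 mean of 2.07 ± 0.597 CPM that was above every parental library. The next genes in likeness were AT3G27040 (a MATH domain protein, r = 0.607) and GALS1 (AT2G33570, a galactan synthase, r = 0.583). The points of these correlations share libraries, parents and batches, and the values are a description.

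**Figure D4:**
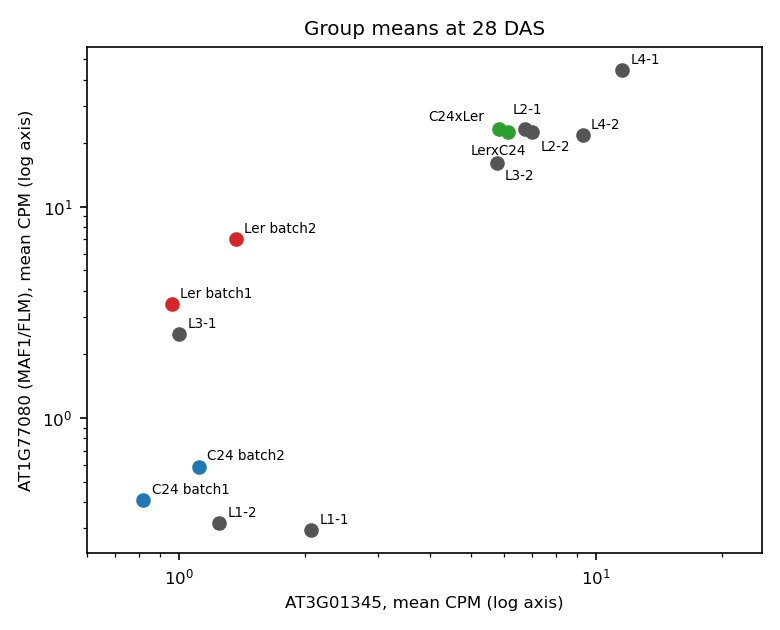
Mean CPM of AT3G01345 and of MAF1 in the 14 groups at 28 DAS, both on log axes. The F1s and 5 L lines lie together at the upper right with MAF1 at 16.1 to 44.4 CPM, and the parents, L1-1, L1-2 and L3-1 lie below, with MAF1 at 0.294 to 7.04.

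The neighbours of AT3G01345 did not follow it. AT3G01340, which encodes a WD40 repeat protein and shares the printed intergenic stretch, averaged 41.8 to 62.6 CPM over the groups at 28 DAS and 38.4 to 48.2 at 15 DAS. It differed from the mid-parent by 0.07 ± 0.13 on the log2 scale in C24xLer and 0.14 ± 0.13 in LerxC24 at 28 DAS (edgeR adjusted p = 1 in both). DEL3 (AT3G01330, an atypical E2F transcription factor), AT3G01350 and AT3G01360 differed from the mid-parent at 28 DAS by -0.34 to 0.09 (adjusted p = 1). Ler of batch 2 was higher than C24 at 28 DAS for DEL3 by 0.83 ± 0.25 (adjusted p = 0.0325), AT3G01350 by 1.29 ± 0.32 (adjusted p = 0.0104) and AT3G01360 by 0.98 ± 0.24 (adjusted p = 0.00931), in a contrast that called 13.1% of genes. In batch 1 none of the 3 passed that contrast (adjusted p of at least 0.458).

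AT3G61198 was a C24 transcript at 28 DAS, and both F1s were near Ler. C24 had 11.1 and 10.6 CPM in batch 1 and 5.03 and 3.47 in batch 2. Ler had 0.840 and 0.737 CPM in batch 1 and 0.0889 and 0.766 in batch 2, the last pair resting on 5 and 30 counts. C24 was above Ler in all libraries without overlap, with Ler minus C24 at -3.79 ± 0.51 (SE) on the log2 scale in batch 1 and -3.39 ± 0.55 in batch 2. C24xLer had 1.16 and 1.39 CPM, and LerxC24 had 0.301 and 0.235. The F1s thus had 11.7 and 6.31% of the C24 level of their batch, where a mean of the parents lay at 5.84 ± 0.207 and 2.34 ± 0.313 CPM (SD, n = 2). C24xLer lay above both Ler libraries of its batch, and LerxC24 lay between them.

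The log2 difference of AT3G61198 from the mid-parent was -2.16 ± 0.32 (SE) in C24xLer and -3.10 ± 0.34 in LerxC24. When the parents were averaged on the log scale, it was -1.18 and -2.28, since that mean lies closer to the lower parent. Without Ler pool D of batch 2, the difference between Ler and C24 in batch 2 was -5.54. The sign was the same in each of these.

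At 28 DAS every L line was also below C24 for AT3G61198. L1-1 had 2.13 and 2.89 CPM and L1-2 had 2.08 and 4.23. L2-1 had 1.09 and 1.05 and L2-2 had 1.45 and 2.00. The batch 1 lines were thus at 9.82 to 29% of the C24 level and above both Ler libraries of their batch. L3-1 had 0.207 and 0.372 CPM, L3-2 had 0.699 and 0.690, L4-1 had 0.820 and 0.537, and L4-2 had 0.558 and 0.709. The batch 2 lines were at 6.81 to 16.3% of the C24 level and overlapped Ler. No difference among the lines passed at 28 DAS (edgeR adjusted p = 0.344 in batch 1 and 0.806 in batch 2). In the order of means, C24 of batch 1 led, then came C24 of batch 2, L1-2, L1-1, L2-2, C24xLer, L2-1, Ler of batch 1, L3-2, L4-1, L4-2, Ler of batch 2, L3-1 and LerxC24. Libraries of 7 of the 13 neighbouring pairs overlapped, and C24 of batch 1 and the 5 groups from L1-1 to Ler of batch 1 were each apart from the group after them.

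At 15 DAS AT3G61198 varied as much between pools as between groups. C24 had 0.639 and 1.58 CPM in batch 1 and 3.74 and 2.23 in batch 2, and Ler had 1.32 and 2.76 in batch 1 and 2.92 and 2.68 in batch 2. C24xLer had 1.04 and 1.62 CPM, and LerxC24 had 4.72 and 1.55. The parents and F1s overlapped, and 16 of 17 neighbouring pairs in the order of means did so too, with a break only between L3-1 and L3-2. The highest means were those of L4-2 (4.64 and 4.17 CPM), S1-1 (5.08 and 1.62) and LerxC24, and the other lines and the smallest seedlings lay between 0.772 and 2.05 CPM per library. Ler minus C24 was 0.88 ± 0.56 on the log2 scale in batch 1 (edgeR adjusted p = 0.477) and -0.08 ± 0.55 in batch 2 (adjusted p = 0.945). With the smallest-seedling Ler pools replacing the Ler pools that stood apart, the batch 1 value was 0.33, and without pool B of C24 it was 1.66 (adjusted p = 0.834 and 0.25).

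The F1s differed from the mid-parent at 15 DAS by -0.25 ± 0.54 in C24xLer and 0.14 ± 0.53 in LerxC24 (adjusted p = 1 in both). The SEs are wide at 2 pools per group, so a departure of moderate size was not detectable at 15 DAS. No L or S line passed against its mid-parent for this gene (adjusted p of at least 0.352). Among the lines of batch 2 at 15 DAS the adjusted p was 0.11, with L4-2 above the other 3 lines without overlap.

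From 15 to 28 DAS AT3G61198 fell in L4-2 by 2.82 ± 0.60 on the log2 scale (edgeR adjusted p = 0.000147), in L3-1 by 2.57 ± 0.62 (adjusted p = 0.000568) and in L3-2 by 1.31 ± 0.57 (adjusted p = 0.0474). Such calls were common, since 32.8, 34.6 and 33.2% of all genes were called lower in L4-2, L3-1 and L3-2. The call in L3-2 was lost with any of its libraries left out (adjusted p up to 0.165). L4-1 had -1.0 ± 0.58 (adjusted p = 0.136), and the lines of batch 1 had 0.70, 1.14, -0.11 and 0.21, none of which passed. L1-2 passed without pool A at 28 DAS (adjusted p = 0.0289). The test of the change among lines gave an adjusted p of 1 in batch 1 and 0.558 in batch 2, so the lines are not shown to differ in it.

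The genes most like AT3G61198 were AT1G61415 (r = 0.866), AT1G61420 (r = 0.863), which encodes an S-locus lectin receptor kinase, and AT4G24026 (r = 0.863). AT1G61415 overlaps AT1G61420, so these are not independent of each other. At 28 DAS AT1G61420 averaged 37.5 ± 1.54 and 18.1 ± 3.32 CPM (SD, n = 2) in C24, 9.02 ± 0.209 and 2.96 ± 0.437 in Ler, 17.3 ± 4.23 in C24xLer and 4.17 ± 0.110 in LerxC24. It was thus closer to the mean of the parents in C24xLer than AT3G61198 was. The other genes of this pattern lie on chromosomes 1 and 4, not beside AT3G61198.

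AT3G61200 and AT3G61210, the 2 nearest genes on 1 side of AT3G61198, did not share its difference between the parents. AT3G61200, a thioesterase family gene 855 bases away, averaged 36.4 ± 0.616 and 34.7 ± 0.426 CPM in Ler and 37.7 ± 2.92 and 33.5 ± 6.13 in C24 at 28 DAS, with 37.5 ± 3.22 and 38.0 ± 6.25 in the F1s. For AT3G61210, a methyltransferase gene, Ler minus C24 at 28 DAS was 0.57 ± 0.27 in batch 1 (edgeR adjusted p = 0.189, 13.5% of genes called). In batch 2 it was 0.88 ± 0.27 (adjusted p = 0.0365, 13.1%). AT3G61210 was also higher in Ler at 15 DAS, by 0.88 in batch 1 (adjusted p = 0.00469, 6.58%) and 0.72 in batch 2 (adjusted p = 0.0105, 18.8%). BAP1 (AT3G61190), an inhibitor of cell death and defence, averaged 44.6 ± 29.7 and 16.0 ± 4.54 CPM in C24, 8.61 ± 0.406 and 5.89 ± 1.15 in Ler, 12 ± 0.283 in C24xLer and 6.41 ± 0.613 in LerxC24 at 28 DAS. It leaned the same way as AT3G61198, with Ler lower by -2.37 ± 0.67 in batch 1 (adjusted p = 0.0236, 13.5% of genes called) and -1.43 ± 0.66 in batch 2 (adjusted p = 0.188). Its difference from the mid-parent, -1.12 ± 0.66 and -0.75 ± 0.66, did not pass (adjusted p = 1). BAP1 and then AT3G61185 are the nearest genes on the other side of AT3G61198. At 28 DAS AT3G61185 was higher in Ler by 1.49 ± 0.48 in batch 2 (edgeR adjusted p = 0.0466, 13.1% of genes called). In batch 1 its difference was 0.47 ± 0.43 (adjusted p = 0.568).

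Like AT3G61198, AT5G07650 was high in C24 at 28 DAS with both F1s near Ler, and it was less spread out. C24 had 8.28 and 6.94 CPM in batch 1 and 5.62 and 5.06 in batch 2, and Ler had 0.840 and 0.980 in batch 1 and 0.800 and 0.638 in batch 2. Ler minus C24 was -3.06 ± 0.26 (SE) on the log2 scale in batch 1 and -2.86 ± 0.27 in batch 2, without overlap. C24xLer had 1.09 and 1.32 CPM, and LerxC24 had 0.808 and 0.814. Both F1s were slightly above Ler of their batch, without overlap, and had 15.8 and 15.2% of the C24 level. The mid-parents stood at 4.26 ± 0.422 and 3.03 ± 0.255 CPM (SD, n = 2).

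The log2 difference of AT5G07650 from the mid-parent was -1.79 ± 0.26 (SE) in C24xLer and -1.87 ± 0.25 in LerxC24. A parental mean taken on the log scale gave -1.12 and -1.28. The crosses were close to each other for this gene, in contrast to the wider gap between their values for AT3G61198, and the direction was the same in all alternatives tried.

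In the L lines at 28 DAS, AT5G07650 was between Ler and C24 in batch 1 and near Ler in batch 2. L1-1 had 1.46 and 2.23 CPM, L1-2 had 1.84 and 2.19, L2-1 had 1.23 and 1.24, and L2-2 had 3.45 and 2.17. These lines had 16.2 to 36.9% of the C24 level, above Ler in every library. L3-1 had 0.801 and 0.945 CPM, L3-2 had 0.920 and 1.12, L4-1 had 0.869 and 1.25, and L4-2 had 0.844 and 0.868. The batch 2 lines had 16 to 19.8% of the C24 level. The test among lines gave adjusted p of 0.0574 in batch 1 and 1 in batch 2. It passed in batch 1 without L1-1 pool B or without L2-2 pool B, and with each library left out it ran from 0.0198 to 0.245. Of 13 neighbouring pairs in the order of means, 8 overlapped. The order was C24 of batch 1, C24 of batch 2, L2-2, L1-2, L1-1, L2-1, C24xLer, L4-1, L3-2, Ler of batch 1, L3-1, L4-2, LerxC24 and Ler of batch 2, with breaks after each C24 group, after L1-1, after L4-2 and after LerxC24.

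At 15 DAS AT5G07650 was nearly flat. All 36 libraries lay between 2.54 and 4.66 CPM, with C24 at 3.4 and 3.42 in batch 1 and 4.66 and 4.37 in batch 2, and Ler at 3.65 and 3.37 in batch 1 and 3.89 and 3.32 in batch 2. C24xLer had 3.31 and 3.28 CPM and LerxC24 had 3.57 and 4.08. C24 of batch 2 was apart from the group after it in the order of means, and the other 16 of 17 neighbouring pairs overlapped. Ler minus C24 was 0.04 ± 0.19 in batch 1 (edgeR adjusted p = 0.956) and -0.31 ± 0.19 in batch 2 (adjusted p = 0.28). The F1s differed from the mid-parent by -0.07 ± 0.20 in C24xLer and -0.07 ± 0.20 in LerxC24 (adjusted p = 1 in both). No L or S line passed against the mid-parent (adjusted p of at least 0.535).

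In the L lines AT5G07650 fell from 15 to 28 DAS in 7 of 8 lines, by 0.72 ± 0.21 in L1-2 (edgeR adjusted p = 0.00432) to 2.16 ± 0.24 in L4-2 (adjusted p = 1.65e-09). The exception was L2-2, at -0.29 ± 0.21 (adjusted p = 0.24), and the share of all genes called lower was 32.8, 32.9, 32 and 32.4% in the lines of batch 1 and 34.6, 33.2, 31.9 and 32.8% in those of batch 2, in the order of their names. The 4 lines of batch 2 fell by 1.72 to 2.16 and kept the call with each library left out. The call in L1-1 was lost without pool A at 28 DAS (adjusted p = 0.058) and that in L1-2 without pool A at 28 or at 15 DAS (adjusted p up to 0.0621). L2-2 passed without pool A at 28 DAS (adjusted p = 0.0278). The change among lines gave adjusted p of 0.476 and 0.959.

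The *Arabidopsis* formin family was followed as a list of 22 genes, of which 21 had a row and 20 could be tested, AT5G07650 included. In Ler against C24 at 15 DAS, 2 formins were called lower in batch 1, where 2.71% of all genes were. In batch 2, 2 were higher and 4 lower, where 8.99 and 9.78% of all genes were called in these directions. The list's median difference was -0.12 and 0.02 on the log2 scale, beside -0.01 and 0.00042 over all genes. Both genes of batch 1 were lower in batch 2 too. FH16 (AT5G07770) was lower in Ler by -1.05 ± 0.26 in batch 1 (edgeR adjusted p = 0.0124) and -2.84 ± 0.27 in batch 2 (adjusted p = 1.17e-07). FH5 (AT5G54650), an actin nucleator of growing cells, was lower by -0.58 ± 0.14 (adjusted p = 0.0122) and -1.25 ± 0.14 (adjusted p = 1.63e-06).

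In batch 2 at 15 DAS, FH19 (AT5G07780) was also lower in Ler by -2.31 ± 0.33 (edgeR adjusted p = 2.55e-05) and AT5G07760 by -0.75 ± 0.22 (adjusted p = 0.0176). FH10 (AT3G07540) was higher by 1.44 ± 0.21 (adjusted p = 3.48e-05) and FH20 (AT5G07740) by 0.48 ± 0.12 (adjusted p = 0.00923). Of the genes on chromosome 5 close to AT5G07650, FH16, FH19 and AT5G07760 were thus lower in Ler, and FH20 higher. The difference of FH16 between batches passed too, at -1.78 ± 0.36 (batch 2 minus batch 1, adjusted p = 0.0116, 1.12% of genes called), in a contrast that rests on the batch 1 Ler pools that stood apart. In these pools FH16 was at 7.17 ± 2.09 CPM, against 3.95 ± 1.27 in Ler of batch 2, 14.9 ± 0.782 in C24 of batch 1 and 28.7 ± 3.75 in C24 of batch 2.

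At 28 DAS 3 of these neighbouring formins were high in C24, as AT5G07650 was, but the F1s were not placed alike. FH16 averaged 82.8 ± 1.73 and 47.6 ± 5.09 CPM in C24 and 3.23 ± 0.243 and 1.48 ± 0.175 in Ler, with 31.6 ± 1.81 in C24xLer and 10.3 ± 1.35 in LerxC24. FH16 in the F1s was thus at 38.1 and 21.7% of the C24 level, where AT5G07650 was at 15.8 and 15.2%. FH19 averaged 19.8 ± 0.429 and 9.04 ± 0.108 CPM in C24 and 0.525 ± 0.0562 and 0.635 ± 0.0319 in Ler, with 3.81 ± 0.196 in C24xLer and 1.05 ± 0.0777 in LerxC24. AT5G07760 averaged 6.05 ± 0.235 and 2.21 ± 0.612 CPM in C24, 0.515 ± 0.200 and 0.470 ± 0.0145 in Ler, and 1.41 ± 0.458 and 0.743 ± 0.0623 in the F1s. FH20 was flat, at 58.9 to 74.0 CPM in all groups.

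The L lines set these formins apart from AT5G07650. In L1-1 and L1-2 FH16 was at 69.2 ± 5.11 and 68.3 ± 4.45 CPM at 28 DAS, 83.5 and 82.5% of the C24 level, while AT5G07650 was at 24.2 and 26.5%. In L2-2 the order was the other way, with FH16 at 16.6% and AT5G07650 at 36.9%. The lines of batch 2 had both genes low, with FH16 at 6.39 to 11.1%. At 15 DAS FH16 was below the mid-parent in L2-2, L3-1, L3-2, L4-1 and L4-2, by -0.97 ± 0.23 (L4-2, edgeR adjusted p = 0.0198) to -1.69 ± 0.24 (L4-1, adjusted p = 0.000244), while AT5G07650 passed in no line.

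**Figure D5:**
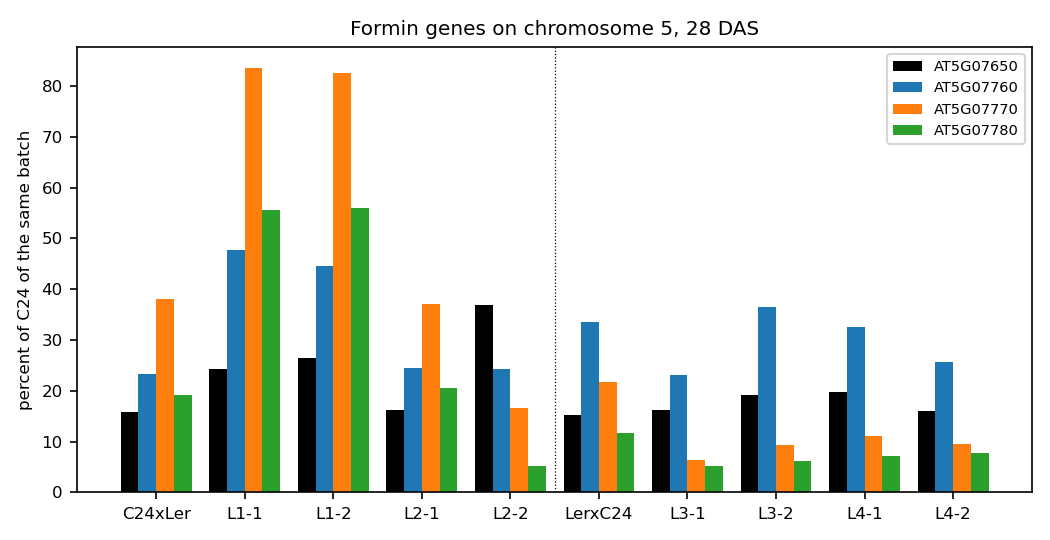
Group means at 28 DAS of AT5G07650 and neighbouring formin genes on chromosome 5, in percent of the C24 mean of the same batch, with batch 2 right of the dotted line. FH16 (AT5G07770) is at 83.5 and 82.5% in L1-1 and L1-2, where AT5G07650 is at 24.2 and 26.5%.

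The genes most like AT5G07650 across the 32 groups were AT4G31230 (a kinase with an adenine nucleotide alpha hydrolase-like domain, r = 0.907), AT5G07760 (r = 0.904) and the basic helix-loop-helix gene AT5G56960 (r = 0.898). AT5G07760 shares the printed stretch and other nearly identical stretches with AT5G07650, so reads could be split between them. For AT5G56960 the likeness came from the contrast of ages and from 28 DAS (r = 0.922 over 14 groups), since r was -0.54 over the 18 groups at 15 DAS. The likeness of AT4G31230 and AT5G07760 was also weaker at 15 DAS (r = 0.563 and 0.448) than at 28 DAS (0.86 and 0.866). AT4G31230 had 5.96 ± 0.287 and 5.54 ± 1.03 CPM in C24, 3.56 ± 0.267 and 2.85 ± 0.125 in Ler and 3.73 ± 0.427 and 3.03 ± 0.274 in the F1s at 28 DAS, so it too was near Ler in both F1s.

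Beside AT5G07650, SMC6A (AT5G07660), a subunit of a complex for DNA repair, was not high in C24. It averaged 5.32 ± 0.958 and 2.41 ± 0.205 CPM in C24, 7.95 ± 0.411 and 4.32 ± 0.635 in Ler and 5.54 ± 0.471 and 3.42 ± 0.186 in the F1s at 28 DAS. At 15 DAS it was higher in Ler by 0.50 in batch 1 (edgeR adjusted p = 0.0454, 6.58% of genes called) and 0.61 in batch 2 (adjusted p = 0.00612, 18.8%). AT5G07640, which overlaps AT5G07650, averaged 1.45 ± 0.0742 and 1.85 ± 0.676 CPM in C24, 1.51 ± 0.148 and 1.98 ± 0.0181 in Ler and 1.27 ± 0.152 and 1.64 ± 0.0275 in the F1s, and so did not show the pattern of its partner.

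Across the 32 groups AT3G61198 and AT5G07650, which lie on chromosomes 3 and 5, correlated with r = 0.807, and AT3G01345 correlated with neither (-0.223 and -0.122). These groups include the parents and F1s whose counts chose the genes, so the choice itself bears on r. The values are therefore a description, and a correlation without those groups was not tested. The order of the crosses and lines was not the same for AT3G61198 and AT5G07650. LerxC24 was the lowest group for AT3G61198 and above Ler of its batch for AT5G07650, and L2-2 led the lines for AT5G07650 while L1-2 led them for AT3G61198.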

How the data were processed

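The deposited values are raw read counts per gene made by the authors, per the labels and the table headers, one table for each age. The submitters' processing notes name TAIR10 and FastQC. Which aligner, counter and strand setting the authors used is not stated there. The authors' normalised tables were not used.

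Counts were tested with edgeR 4.0.16 (quasi-likelihood, filterByExpr, TMM scaling, group means) in R 4.3.3, with Benjamini-Hochberg adjustment over 27720 to 30407 genes and a threshold of 0.05. Standard errors are the log2 difference divided by the square root of the F statistic. In silico mid-parents averaged C24 and Ler libraries of the same letter at equal effective size, 2 per batch. Levels are CPM on TMM scale over 64 libraries. The contrast of F1 and mid-parent at 28 DAS chose the genes and that of Ler and C24 shares its libraries, so both are given without p for the 3 genes. Tests among lines at 28 DAS and of change with age share their estimate of spread with those libraries. DESeq2 1.42.0, other scaling, no filter, batch-only fits, the log-scale mid-parent, crossed letters, a replicate block and left-out libraries were alternatives. Scripts were checked on simulated counts. Sequences came from RefSeq TAIR10.1, matched with BLAST+ 2.17.0, and no C24 or Ler genome sequence was used. Gene names for 32565 of 33321 rows came from the RefSeq gene table.

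The 3 genes and all lists (formins, markers) were chosen with earlier results of these data known. Other named genes are the 2 nearest on each side of each gene and the 3 most alike in level. Letters A to D were taken as names in these tests. Within batch 2 at 28 DAS, deviations of same-letter pools correlated at 0.337 to 0.566 in all 10 pairs of groups, so the letters A and B pair samples there, and a block by letter changed no call among those lines.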

Additional observations from a re-analysis of the deposited data

Results flagged for a closer look

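The change of AT3G01345 from 15 to 28 DAS differed among the 4 L lines of batch 1 (edgeR quasi-likelihood, adjusted p = 0.000687) and among those of batch 2 (adjusted p = 0.000214), by a test of the difference between lines that was added after the data were seen. In batch 1 the changes were -0.89, -1.82, 0.43 and 0.42 on the log2 scale in L1-1, L1-2, L2-1 and L2-2. In batch 2 they were -2.09, -0.20, 0.17 and 0.77 in L3-1, L3-2, L4-1 and L4-2. The 15 DAS libraries of L1-1 and L1-2 stood unusually close to each other. In both pools of L1-1, the transcripts that Ler lacked were lower at 15 than at 28 DAS. The 15 DAS libraries of L3-2 and L4-1 were numbered in the deposit with those of batch 1. The part of these points in the result was not tested. With each library left out in turn the adjusted p ran from 9.28e-05 to 0.0114 in batch 1 and from 2.24e-05 to 0.00831 in batch 2.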

How the results depend on the processing

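For the 24 comparisons of parents and F1s, 236 alternatives kept the direction and size, 10 reversed and 6 moved, and for the results on lines 496 kept direction and call, 22 reversed, and 15 calls were lost and 13 gained. The cause of the exceptions was not tested. With the smallest Ler pools, AT3G61198 in C24xLer minus mid-parent at 15 DAS was 0.085. With a log-scale mean of the parents, the 28 DAS values were -1.18 for AT3G61198 in C24xLer and -1.12 and -1.28 for AT5G07650 in C24xLer and LerxC24, and AT3G61198 in L1-1 at 15 DAS was 0.020. With RLE size factors AT5G07650 in L2-2 at 15 DAS was 0.0042.

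Leaving out single libraries gave these ranges. For Ler minus C24 at 15 DAS they were -0.064 to 0.42 (AT3G01345, batch 2), -0.41 to 0.33 (AT3G61198, batch 2) and -0.0085 to 0.10 (AT5G07650, batch 1), and at 28 DAS in batch 2 -5.54 to -2.45 (AT3G61198) and -3.04 to -2.72 (AT5G07650). For F1 minus mid-parent they were -0.71 to 0.44 and -0.90 to 0.71 for AT3G61198 in C24xLer and LerxC24 at 15 DAS, -0.18 to 0.016 for AT5G07650 in LerxC24 at 15 DAS, and -2.29 to -2.05 for AT3G61198 in C24xLer at 28 DAS. For lines against mid-parent, AT3G61198 ran from -0.51 to 0.65 (L1-1), -0.62 to 0.54 (L1-2), -0.90 to 0.25 (L2-1) and -0.59 to 0.62 (L2-2), and AT5G07650 from -0.20 to 0.046 (L1-2), -0.40 to 0.14 (L2-1), -0.17 to 0.14 (L2-2) and -0.20 to 0.10 (L4-2). For the change with age, AT3G01345 ran from -0.44 to 0.086 (L3-2) and -0.032 to 0.39 (L4-1), AT3G61198 from -0.22 to 0.0063 (L2-1) and -0.18 to 0.73 (L2-2, at -0.043 without pool B of 28 DAS), and AT5G07650 from -0.66 to 0.0057 (L2-2).

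The replicate block gave 0.58 for AT3G01345 in C24xLer minus mid-parent at 15 DAS and 2.75 at 28 DAS. Outside batch 2 at 28 DAS, 30 of 36, 5 of 10 and 14 of 21 pairs of groups (batch 1 and batch 2 at 15 DAS, batch 1 at 28 DAS) had a same-letter correlation over 0.1, and AT3G61198 was lower in pool A than in pool B in 8 of 9 groups of batch 1 at 15 DAS. AT3G01345 was higher in pool A in 7 of those 9 groups. In batch 2 at 28 DAS it was lower in pool A in 5 of 5 groups with pools A and B, so its spread between pools there follows the letter. A replicate block within each batch, added after the data were seen, lost none of the line calls and gained 5. AT3G01345 then passed against the mid-parent at 15 DAS in L2-1, L2-2 and L4-2 (adjusted p = 0.0334, 0.0254 and 0.023), and AT3G61198 passed among the batch 2 lines at 15 DAS (0.0229) and in L1-2 with age (0.0289). AT3G61198 in L1-1 minus mid-parent was then 0.029. Genes called at 28 DAS in C24xLer numbered 4, with 1 under the block, 134 with the log-scale mid-parent and 46 by DESeq2; in LerxC24 8, with 5, 165 and 115. At 15 DAS they numbered 63, with 58, 158 and 81, and 5, with 6, 162 and 70. Fitted on 1 batch alone, edgeR called 26 at 15 and 6 at 28 DAS in C24xLer and 8 and 0 in LerxC24. The last 0 stood beside 1080 genes at an unadjusted p below 0.05 and 157 called by DESeq2. With the smallest Ler pools edgeR called 0 in C24xLer at 15 DAS, beside 1532 such genes and 47 by DESeq2. With 2 pools per group and 5 counts in the lowest library of AT3G61198, depth and pool number limit small differences.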

Other observations

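Genes within 500 kb whose parents differed at least 4-fold at 28 DAS, by a rule chosen after the data were seen, did not all follow AT3G61198. AT3G61010, at -84.9 kb from it, averaged 71.4 and 65.4 CPM in C24 and 0.0187 and 0.12 in Ler, with 33.0 and 27.1 in the F1s, where AT3G61198 was near Ler. L1-1 and L1-2 had AT3G61010 at 0.0207 and 0.0619 CPM while AT3G61198 was at 2.51 and 3.16, the highest of the lines. L3-1, L3-2, L4-1 and L4-2 had AT3G61010 at 37.7, 47.5, 52.2 and 20.3 CPM while AT3G61198 was at 0.289, 0.694, 0.678 and 0.633. The lines were thus not ordered alike for these genes.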
